A study of Mus musculus with 6 samples.

Results

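The genes described here are 8 genes known from Schwann cells and the neural crest: Mbp, S100b, Gfra3, Erbb3, Nes, Ngfr, Sox2 and Foxd3. They were taken as a fixed list, chosen with earlier results of these data known, out of 21368 genes that could be named on the array. Every non-control probe whose RefSeq accession maps to a listed gene was used, which gave 10 probes for the 8 genes. Mbp had 3 probes and each of the others had 1. The series compared melanocyte stem cells of K14-SCF transgenic (Tg) mice, whose basal epidermis makes stem cell factor from a keratin 14 promoter, with those of wild-type (WT) mice. Each genotype had 3 samples from male mice, each on an array of its own, and all 6 were cells from skin that were green fluorescent with low side scatter and were taken as melanocyte stem cells by that gate. The reporter behind the fluorescence, the age of the mice, the genetic background and whether animals were pooled are not given in the sources used here. The labels number the replicates without tying them to animals, so the p-values rest on the spread between samples that may be technical repeats.

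Melanocytes and Schwann cells both descend from the neural crest, and part of the pigment lineage arises from Schwann cell precursors along nerves. Schwann cells wrap axons, depend on neuregulin signals through ERBB3, and either form myelin, of which myelin basic protein is a structural component, or ensheath small axons without it. Hair follicles are innervated, so terminal glia lie close to the niche of the pigment stem cells, and several of the 8 genes are used in both lineages. In such sorted samples fewer cells of a type and less RNA per cell cannot be told apart.

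Levels are processed signals divided by the 75th percentile of their array, on the log2 scale. They compare arrays for 1 probe and do not rank genes against each other. The share of the 55681 non-control probes well above background was highest on Tg replicate 2 (87.1%) and lowest on WT replicate 3 (78.4%), each array had 0 saturated spots, and precision is limited by having 3 arrays a genotype. WT replicate 1 was the only array on its slide, while on the other slide row 2 held Tg replicate 3 and WT replicate 3 and row 1 held the remaining arrays. The label of the sort was set beside 10 melanocyte markers, all 10 of which were above background on 6 of 6 arrays. The mean level of the list was 3.30, 3.39 and 3.13 on the Tg arrays and 3.49, 3.48 and 3.12 on the WT arrays. Detection cannot check the label, since 41001 probes were above background on all 6 arrays. So were 6 of 6 leukocyte, 6 of 7 fibroblast and 6 of 7 keratinocyte markers. The endothelin receptor gene Ednrb had the smallest p among the melanocyte markers, at -0.65 (SE 0.21) as a log2 fold change. Kit at -0.46 (SE 0.28) and Mitf at -0.17 (SE 0.32) followed, and 0 of the 10 passed the test (limma, 1 at an unadjusted p under 0.05).

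No member was called different between the genotypes. All 8 genes and all 10 probes entered the test, limma across 47704 probes, and 0 of the 8 passed at an adjusted p under 0.05, with 1 of 8, S100b, at an unadjusted p under 0.05. Of all probes tested 0.0021% were called. Of the 18364 genes tested, 0.00545% were called and 5.42% had an unadjusted p under 0.05. Adjusted p-values of the 10 member probes from limma lay between 0.887 (S100b) and 1.00. The log2 fold change, Tg minus WT, was positive for 3 members and negative for 5 by representing probe (Mbp, counted as positive, had a positive value at 1 of its 3 probes), with a median of -0.51, while 51.4% of all genes tested were negative and their median was -0.01. The genotypes did not overlap in 1 of the 8 members, where 10.5% of all genes tested showed no overlap.

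**Figure D1:**
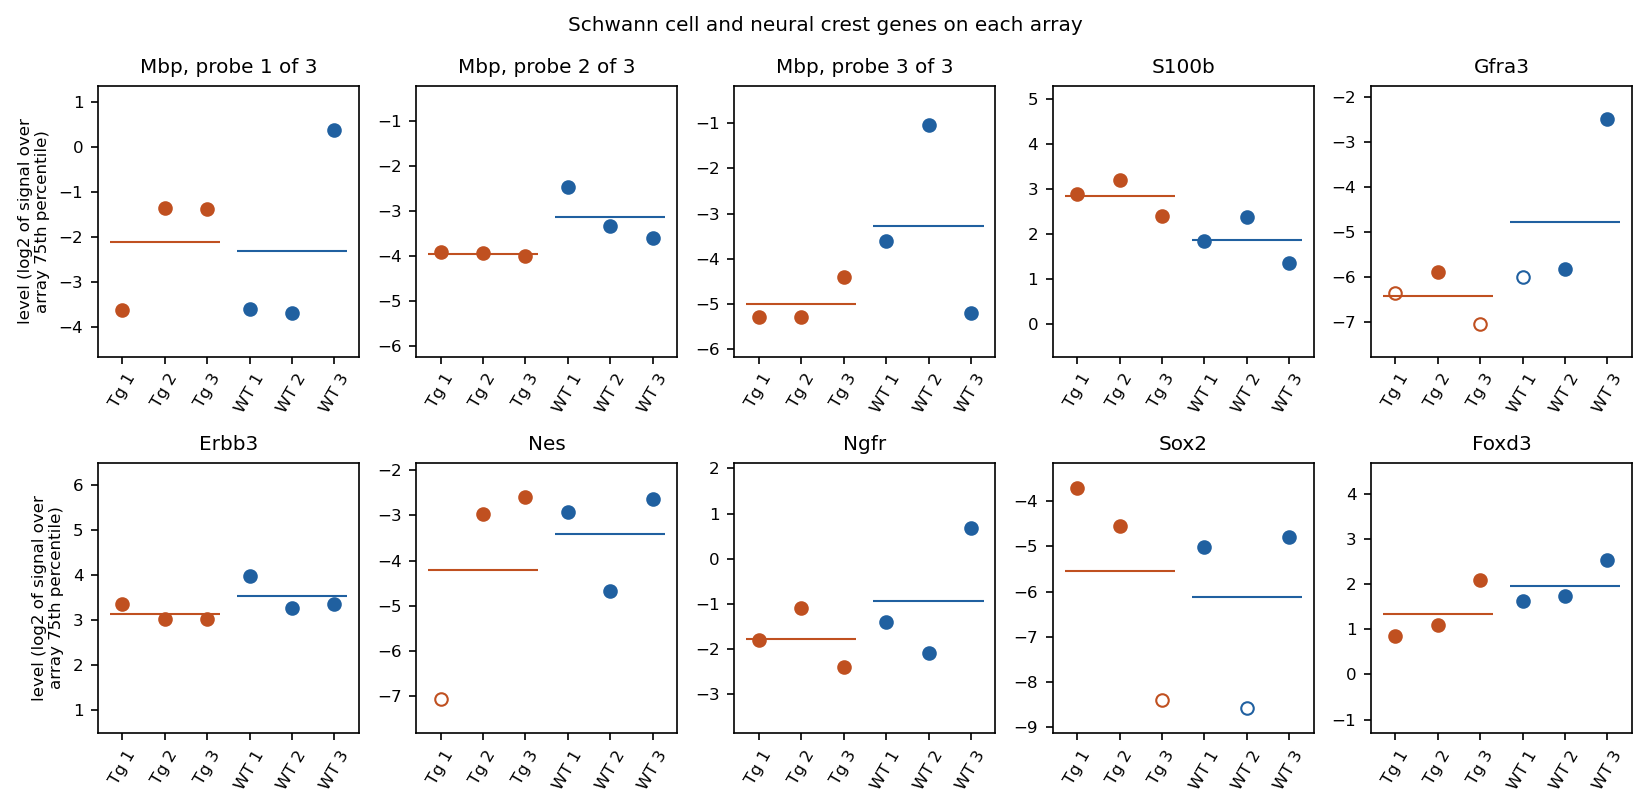
Level of each probe of the 8 genes (vertical axes, log2 of signal over the array's 75th percentile, each spanning 6 log2 units) on the 3 K14-SCF Tg arrays (orange) and the 3 WT arrays (blue). Filled points are well above background, open points are not, and lines are the means of 3 arrays. S100b, Erbb3 and Foxd3 stay within 1.85 log2 units over the arrays, while Gfra3, Nes, Sox2 and Mbp probes 1 and 3 spread over more than 4.

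S100b had the smallest p of the members. It encodes the calcium-binding protein S100 beta, a marker of Schwann cells and other glia that melanocytes also make. Its level was 2.90, 3.21 and 2.40 on the Tg arrays and 1.85, 2.37 and 1.36 on the WT arrays. The lowest Tg array, replicate 3, lay just above the highest WT array, replicate 2, so the genotypes were apart by a narrow margin. The means were 2.84 ± 0.41 in Tg and 1.86 ± 0.51 in WT (SD, n = 3 each), a log2 fold change of 0.98 (SE 0.37, 95% interval 0.08 to 1.87) that did not pass over all probes (limma, adjusted p = 0.887). The difference was 0.97 within the slide that holds 5 of the arrays, and it ran between 0.73 and 1.23 when any 1 array was left out.

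The bases before the starts of Foxd3 and S100b are shown as 2 examples. Both genes were above background on 6 of 6 arrays with differences of opposite sign, and neither difference passed the test. The same holds for Ngfr (-0.83) beside S100b, so the pair, and the motif marked in each, were set by choice. Foxd3 encodes a forkhead transcription factor of the early neural crest that holds back the melanocyte fate in the chick crest. The sequences are the 250 bases upstream of the annotated start on the plus strand, from RefSeq on GRCm38.p6, at chr10:76253586-76253835 for S100b and chr4:99656049-99656298 for Foxd3. Capitals mark CCAAT on either strand in S100b and CACGTG in Foxd3.
S100b: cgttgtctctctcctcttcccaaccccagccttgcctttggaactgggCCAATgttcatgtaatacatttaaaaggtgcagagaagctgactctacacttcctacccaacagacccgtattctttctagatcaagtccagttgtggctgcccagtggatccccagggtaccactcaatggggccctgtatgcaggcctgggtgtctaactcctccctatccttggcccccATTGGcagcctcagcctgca
Foxd3: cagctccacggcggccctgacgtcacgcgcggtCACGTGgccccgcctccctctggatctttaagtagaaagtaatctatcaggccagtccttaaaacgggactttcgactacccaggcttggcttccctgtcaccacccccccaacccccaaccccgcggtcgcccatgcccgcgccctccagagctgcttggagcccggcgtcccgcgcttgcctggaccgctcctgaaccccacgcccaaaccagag

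The S100b window held 2 matches to CCAAT, the CCAAT box, on either strand, and the Foxd3 window held 1 match to CACGTG, the palindromic E-box that MITF and the USF factors can bind. Of 32851 RefSeq promoter windows cut to the same 250 bases, 33.8% held CCAAT and 6.02% held CACGTG. Windows were available for 5 members, S100b, Foxd3, Nes, Ngfr and Sox2. Among these 5, CCAAT was found in S100b and Sox2, CACGTG in Foxd3 alone, and ACAAAG, a motif that SOX factors can bind, in Sox2 alone (16.5% of all windows on both strands). CATGTG, the core of the M-box, was in none of the 5 (12.3% of all windows). The matches are a description of these letters. None of the motifs searched contains another.

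Foxd3 itself stood at 0.86, 1.10 and 2.10 on the Tg arrays and at 1.64, 1.74 and 2.54 on the WT arrays. In each genotype replicate 3 was the highest array, and Tg replicate 3 lay above WT replicates 1 and 2, so the groups overlapped. The means were 1.35 ± 0.65 in Tg and 1.97 ± 0.49 in WT (SD, n = 3 each), a log2 fold change of -0.62 (SE 0.44, 95% interval -1.69 to 0.45, limma adjusted p = 0.972). The difference was -0.34 without WT replicate 3, -0.99 without Tg replicate 3 and -0.71 without both.

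Erbb3 was the steadiest of the members. It encodes the neuregulin receptor that Schwann cell precursors need to survive and that melanocytes keep. Its level was 3.36, 3.02 and 3.02 on the Tg arrays and 3.97, 3.27 and 3.36 on the WT arrays. WT replicate 1 was the highest and the other 5 arrays lay close together, so the groups overlapped. The log2 fold change was -0.40 (SE 0.28, 95% interval -1.09 to 0.30, limma adjusted p = 0.972), and within the slide without WT replicate 1 it was -0.18.

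The neurotrophin receptor gene Ngfr, which encodes p75NTR, a surface marker of neural crest stem cells and of immature and non-myelinating Schwann cells, split within WT. Its level was -1.81, -1.10 and -2.41 on the Tg arrays and -1.41, -2.09 and 0.67 on the WT arrays. WT replicate 3 stood above all others, and WT replicate 2 lay below 2 of the Tg arrays. The probe is printed 10 times on each array, and the SD between its spots within an array was 0.04 to 0.11, after 2 outlier spots were left out on WT replicate 2 and 2 on WT replicate 3. Between arrays its level ranged over 3.09. The means were -1.77 ± 0.65 in Tg and -0.94 ± 1.44 in WT (SD, n = 3 each), with a log2 fold change of -0.83 (SE 0.78, 95% interval -2.74 to 1.07, limma adjusted p = 0.986). Without WT replicate 3 the difference was -0.03, and without both arrays numbered 3 it was 0.29.

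Gfra3, the gene of the co-receptor for artemin, found in mice on Schwann cell precursors and sensory neurons, was dim on most arrays. Its level was -6.36, -5.87 and -7.03 on the Tg arrays and -6.00, -5.81 and -2.49 on the WT arrays. It was well above background on 1 of 3 Tg arrays (replicate 2) and on 2 of 3 WT arrays (replicates 2 and 3). WT replicate 3 was the only array far above the others. The log2 fold change was -1.66 (SE 1.00, 95% interval -4.10 to 0.79, limma adjusted p = 0.951), and it was -0.52 without WT replicate 3.

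Mbp, which encodes myelin basic protein, gave different pictures at its 3 probes. The probe with the highest mean, which represents the gene, stood at -3.61, -1.36 and -1.39 on the Tg arrays and at -3.60, -3.68 and 0.37 on the WT arrays. WT replicate 3 was again the highest and Tg replicates 2 and 3 came next, so the groups overlapped, with a log2 fold change of 0.18 (SE 1.28, 95% interval -2.95 to 3.31). The second probe, matched to the same transcript, stood at -3.92, -3.93 and -4.00 on the Tg arrays and at -2.46, -3.33 and -3.60 on the WT arrays. Here all 3 WT arrays lay above all 3 Tg arrays, at a log2 fold change of -0.82 (SE 0.35), and 10.3% of all tested probes showed no overlap. The third probe, matched to another Mbp transcript, stood at -5.30, -5.29 and -4.41 on the Tg arrays and at -3.61, -1.04 and -5.20 on the WT arrays, at -1.72 (SE 1.04), with WT replicate 2 the highest and WT replicate 3 within the Tg range.

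None of the 3 Mbp probes passed (limma, adjusted p between 0.918 and 1.00). The array that was highest differed between the probes: WT replicate 3, WT replicate 1 and WT replicate 2. The log2 fold changes of the 3 probes spanned 1.90, against a median span of 0.67 among the 697 genes with 3 tested probes, and 7.46% of these spanned at least as much. The mean of the 3 probes gave -0.78, the opposite sign to the representing probe. Where Mbp is counted among the 8 members, its representing probe is meant, and its direction does not hold for the other 2.

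**Figure D2:**
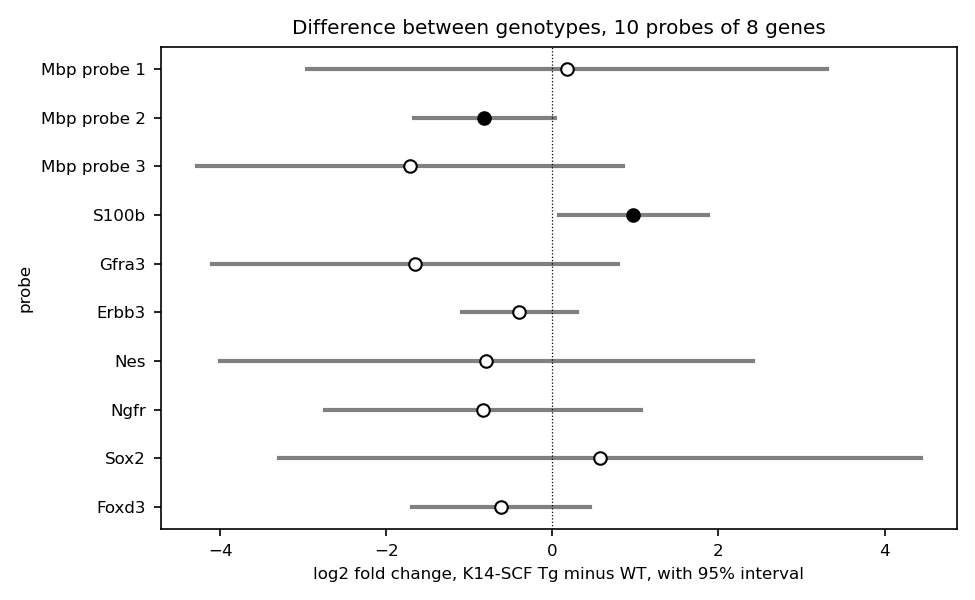
Log2 fold change, K14-SCF Tg minus WT, of the 10 probes of the 8 genes (points, n = 3 arrays a genotype) with limma's 95% interval (lines). Filled points are probes whose genotypes did not overlap: S100b at 0.98 and the second Mbp probe at -0.82. The interval of S100b excludes 0 before adjustment and the other 9 include it.

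Nes, the gene of the intermediate filament nestin, found in neural progenitors, neural crest stem cells and some follicle cells, was split by a single Tg array. Its level was -7.07, -2.96 and -2.59 on the Tg arrays and -2.91, -4.68 and -2.64 on the WT arrays. Tg replicate 1 was the only array not well above background and the lowest by far, while Tg replicate 3 was the highest of all 6. The log2 fold change was -0.79 (SE 1.31, 95% interval -4.00 to 2.42, limma adjusted p = 0.994), and without Tg replicate 1 its sign turned, to 0.64.

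Sox2, which encodes a transcription factor of neural progenitors and immature Schwann cells, also made in dermal papilla and Merkel cells, was detected on 2 of 3 arrays of each genotype. Its level was -3.70, -4.55 and -8.41 on the Tg arrays and -5.01, -8.57 and -4.80 on the WT arrays. The arrays not above background were Tg replicate 3 and WT replicate 2. The log2 fold change was 0.57 (SE 1.57, 95% interval -3.29 to 4.44, limma adjusted p = 1.00), and its sign turned without Tg replicate 1 (-0.35) or WT replicate 2 (-0.65). Of 6 Merkel cell markers, Piezo2, Krt18 and Krt20 were tested and above background on 6 of 6 arrays, Krt8 was above it on 1 and Atoh1 and Isl1 on 0. Of 8 dermal papilla markers 7 were tested, with a mean level of -1.65, -2.58 and -2.50 on the Tg arrays and -2.61, -2.49 and -2.04 on the WT arrays. Tg replicate 1 was the highest array for that list and for Sox2. WT replicate 3 came second for the list, and Tg replicate 2 came second for Sox2. WT replicate 2, the lowest array for Sox2, was the third highest for the list. The part of these cells in the Sox2 signal was not tested.

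Across the 6 arrays the representing probes of Erbb3, Foxd3 and S100b spanned 0.95, 1.68 and 1.85 log2 units. Those of Mbp, Gfra3, Nes, Ngfr and Sox2 each spanned more than 3, as did 14.1% of all genes tested, and the other Mbp probes spanned 1.54 and 4.26. These 5 members had a mean level under -1, where 23.4% of 9779 genes spanned more than 3. Erbb3, Foxd3 and S100b had a mean over 1, where 0.68% of 4382 genes did. The cuts were set by choice, and Ngfr, at 3.09, lay just past the cut on the span. The part of level in the spread of the members was not tested. By representing probe, WT replicate 3 held the highest value of 4 members, Mbp, Gfra3, Ngfr and Foxd3, where it held the highest value of 20.7% of all genes tested. For Mbp this was 1 of 3 probes, and at the other 2 WT replicate 3 was the lowest WT array. Its S100b, in contrast, was the lowest of the 6 arrays. The members above background numbered 6, 8 and 6 on Tg replicates 1 to 3 and 7, 7 and 8 on WT replicates 1 to 3.

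**Figure D3:**
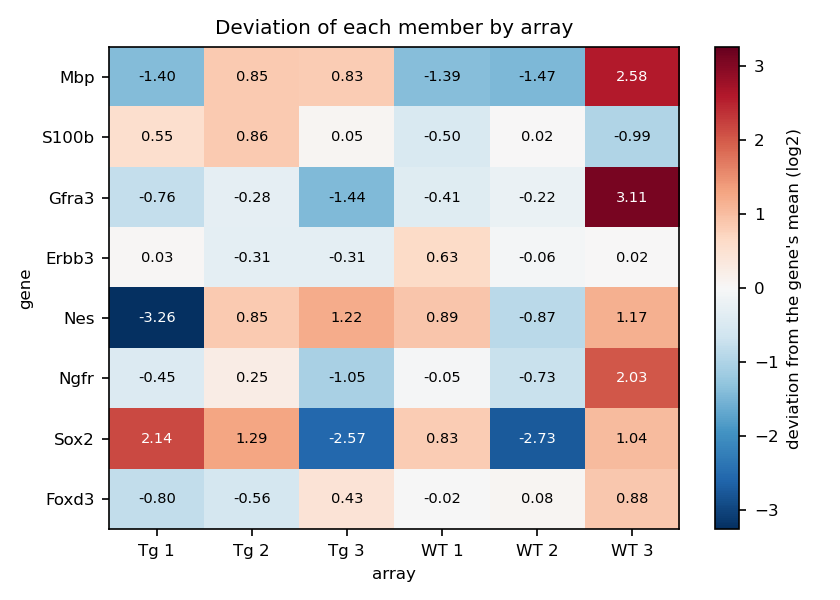
Deviation of each gene's representing probe from its own mean over the 6 arrays (colour and printed value, log2 units), with K14-SCF Tg arrays left and WT arrays right. WT replicate 3 is highest for Mbp (2.58), Gfra3 (3.11), Ngfr (2.03) and Foxd3 (0.88), and lowest for S100b (-0.99).

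The related gene lists were set beside the high values of WT replicate 3. Of 18 tested genes of myelin and myelinating Schwann cells, 4 were highest on WT replicate 3 and 5 on Tg replicate 3, and the median deviation of the list on WT replicate 3 was 0.03. Of 14 genes of immature and non-myelinating Schwann cells, 0 were highest on WT replicate 3, and the median deviation there was -0.43. The median deviation on that array was 0.72 for the 7 GDNF family genes (2 of 7 highest there), 0.29 for the 8 neurotrophin genes (2 of 8), 0.20 for the 16 neural crest specifiers (5 of 16) and -0.03 for the 7 neuregulin and ERBB genes (1 of 7). Of 5 endothelial markers 3 were highest on WT replicate 3, while Cdh5 was highest on Tg replicate 2 and Kdr on WT replicate 2. The mean level of the list was -3.04, -2.29 and -3.50 on the Tg arrays and -2.67, -2.19 and -0.71 on the WT arrays. Neuron markers were highest on WT replicate 3 in 3 of 5 genes, with a mean level of 0.14, 0.19 and -0.12 on the Tg arrays and -0.38, -0.15 and -0.04 on the WT arrays. Highest there were also 0 of 10 melanocyte, 0 of 5 muscle and pericyte, 1 of 7 fibroblast and 1 of 6 leukocyte markers. The counts were 2 of 7 for keratinocyte, 2 of 7 for dermal papilla and 1 of 3 for Merkel cell markers. Over all genes tested, the SD of the deviations was largest on that array (0.83). The part of other cells in the high values of WT replicate 3 was not tested.

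Fibroblast markers had the lowest median log2 fold change of the marker lists. Of 7 tested, 6 were negative and 1 was positive, with a median of -1.73, 0 passed the test and 4 had an unadjusted p under 0.05 (limma). Their mean level was 0.12, -0.76 and -1.09 on the Tg arrays and 1.16, 0.91 and 0.01 on the WT arrays, with the surface glycoprotein gene Thy1 at -1.69 (SE 0.34) and the collagen genes Col1a2 at -1.87 (SE 0.52) and Col3a1 at -2.31 (SE 0.76). Their part in the differences of the 8 genes was not tested. The other marker lists had 0 calls as well, with median log2 fold changes of -0.15 for 7 keratinocyte, 0.01 for 6 leukocyte, -0.94 for 5 endothelial, 0.30 for 5 muscle and pericyte, 0.03 for 5 neuron, -0.28 for 3 Merkel cell and 0.04 for 7 dermal papilla markers. At an unadjusted p under 0.05 the muscle and pericyte markers had 1 member, Rgs5, which was above background on 1 of 3 Tg arrays and 3 of 3 WT arrays and so was tested only through its detection in WT, and the other 6 of these lists had 0.

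Myelin genes were measured beside Mbp. Of 19 listed, 18 were tested, 0 passed in either direction and 1 had an unadjusted p under 0.05, with 10 positive and 8 negative and a median log2 fold change of 0.08. That 1 gene was Cryab, a small heat shock protein gene of Schwann cells and muscle, which stood at 2.45, 2.49 and 2.66 on the Tg arrays and at 1.50, 1.92 and 1.53 on the WT arrays, without overlap (log2 fold change 0.88, SE 0.23, limma adjusted p = 0.677). Naming the gene with the smallest p in a list favours a gene without overlap. In this list 1 of 18 tested genes showed no overlap, where 10.5% of all genes tested did. The tight junction gene Cldn19 stood at 0.39 (SE 0.29) and Gldn, which encodes gliomedin of the nodes of Ranvier, at 0.78 (SE 0.63).

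Of 16 genes of immature and non-myelinating Schwann cells, 14 were tested, 0 passed in either direction and 1 had an unadjusted p under 0.05, with 10 positive and 4 negative and a median log2 fold change of 0.28. L1cam, a neural cell adhesion gene, had the smallest p. It stood at -0.32, 0.29 and -0.11 on the Tg arrays and at -0.58, -1.18 and -1.08 on the WT arrays, without overlap (log2 fold change 0.90, SE 0.29, limma adjusted p = 0.824). In this list 2 of 14 tested genes, L1cam and Gfap, showed no overlap, where 10.5% of all genes tested did. Cdh6, a cadherin gene of the crest, stood at 0.96 (SE 0.56) and Mpzl1 at 0.31 (SE 0.27). Sox10, the transcription factor gene shared by Schwann cells and melanocytes, stood at 5.14, 5.21 and 4.80 on the Tg arrays and at 5.15, 5.61 and 4.65 on the WT arrays, with the groups overlapping. Gap43 and Scn7a, both used as marks of non-myelinating Schwann cells, were above background on 1 and 2 of the 6 arrays and were not tested.

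Of the 16 neural crest specifiers, all tested, 0 passed in either direction and 1 had an unadjusted p under 0.05, with 5 positive and 11 negative and a median log2 fold change of -0.13. Snai1, which encodes a repressor of E-cadherin that acts when crest cells leave the neural tube, had the smallest p. It stood at -6.27, -4.16 and -5.06 on the Tg arrays and at -2.83, -3.20 and -3.09 on the WT arrays. All WT arrays lay above all Tg arrays, and Tg replicate 1 was not above background (log2 fold change -2.12, SE 0.55, limma adjusted p = 0.666). It was 1 of 16 specifiers without overlap, where 10.5% of all genes tested showed none. Sox9 stood at 1.10 (SE 0.62) and Tfap2b at -0.50 (SE 0.31).

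**Figure D4:**
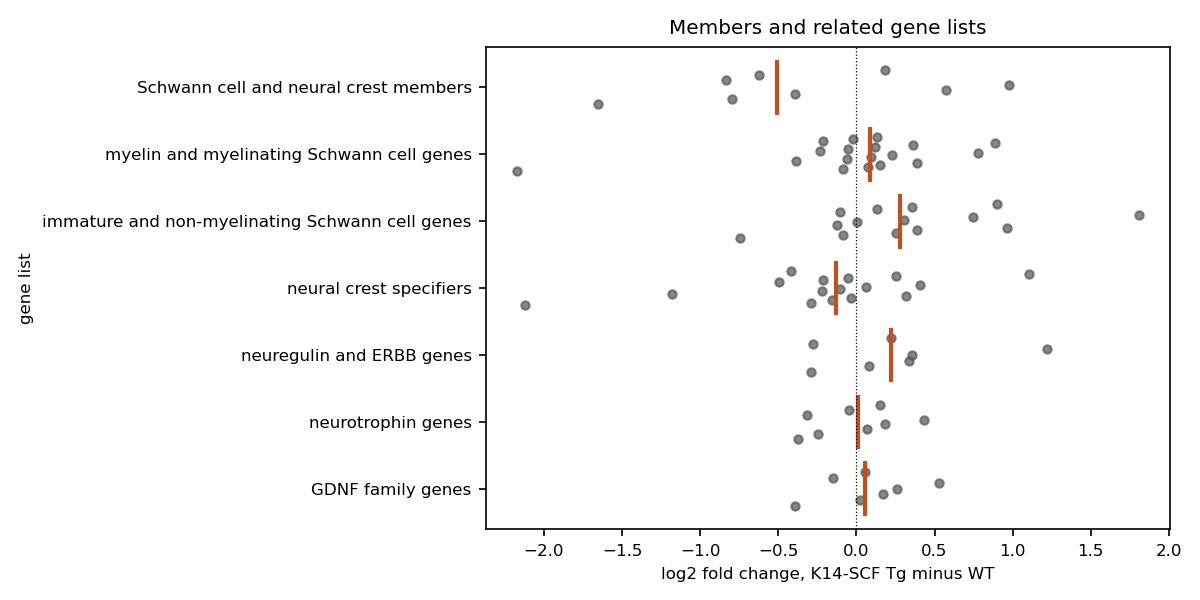
Log2 fold change, K14-SCF Tg minus WT, of each tested gene (points) of the 8 members and 6 related lists, with the median of each list as a bar. The medians run from -0.51 (members) to 0.28 (immature and non-myelinating Schwann cell genes), and no gene shown passed the test.

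Genes of the pathways of the 3 receptor genes were measured next. Among neuregulin and ERBB genes, which hold ligands and dimer partners of ERBB3 with other ERBB ligands and an inhibitor, 7 of 8 were tested, 0 passed and 1 had an unadjusted p under 0.05 (limma), with a median log2 fold change of 0.22. Nrg4, whose product binds ERBB4, stood at -2.84, -4.21 and -3.80 on the Tg arrays and at -4.46, -4.78 and -5.26 on the WT arrays, without overlap (log2 fold change 1.22, SE 0.43, limma adjusted p = 0.869). It was 1 of 7 tested genes of the list without overlap, where 10.5% of all genes tested showed none. Nrg1, the ligand that Schwann cells receive from axons, stood at 0.34 (SE 0.28) and Nrg3 at 0.35 (SE 0.30). Erbb4 was above background on 1 of 6 arrays, Tg replicate 3, and was not tested.

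Of the 8 neurotrophin genes, which encode ligands and co-receptors of p75NTR, all were tested, 0 passed and 0 had an unadjusted p under 0.05 (limma), with a median log2 fold change of 0.01. Sort1, which encodes the co-receptor sortilin, stood at -0.37 (SE 0.29), Bdnf at -0.32 (SE 0.33) and Ntrk2 at -0.25 (SE 0.27). Of the 8 GDNF family genes, around GFRA3, 7 were tested, 0 passed and 0 had an unadjusted p under 0.05 (limma), with a median of 0.06. Artn, the ligand of GFRA3, stood at -2.52, -2.69 and -2.02 on the Tg arrays and at -2.93, -2.84 and -3.04 on the WT arrays, without overlap (log2 fold change 0.53, SE 0.26). Gfra4 stood at 0.26 (SE 0.20), also without overlap, and Gdnf at -0.40 (SE 0.62). In this list 2 of 7 tested genes showed no overlap, where 10.5% of all genes tested did. Ret, the kinase that GFRA3 signals through, was above background on 0 of 6 arrays.

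For the 7 members that spanned over 1 log2 unit, the genes nearest in pattern were found by the mean absolute difference over the 6 arrays after each probe was centred on its own mean. The nearest to Ngfr were Fam118b (0.10) and L3mbtl2 (0.16), against a median over all genes of 0.87. Those nearest to Gfra3 were Prune1 (0.18) and Gm10768 (0.30), and those nearest to Mbp were Fmo1 (0.32) and Zbtb46 (0.42). Each of these 6 was highest on WT replicate 3, which follows from picking them as nearest to Ngfr, Gfra3 and Mbp, themselves highest there. Their differences lie below the median over all genes by the same choice. Foxd3 was nearest to Herpud1 (0.08) and Trp53 (0.11), S100b to Cstf1 (0.11) and Olfr517 (0.11), Nes to Nr2f1 (0.26) and Gucy1b2 (0.27), and Sox2 to Oxsm (0.39) and Alad (0.50). None of the 7 had another of the 8 members among its 2 nearest genes. With 2 taken out of 18364 genes, this does not tell whether the members moved together.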

How the data were processed

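Per the file headers, the arrays were 1-colour Agilent arrays (probe design on build mm9), and Agilent Feature Extraction 10.7.1.1 read the spots. The deposited intensity values used are the processed signal, background-subtracted and detrended within an array, and the median signals of spot and local background. Flags of 0 or 1 were used as deposited. The authors also deposited a table whose unit is a linear ratio: each column was the processed signal over 1 constant (1404.6 to 1678.0), with medians of 0.169 to 0.188, not centred by gene. No source used here says how the constant was set. On each array it lay close to the 75th percentile used here (1410.7 to 1686.5). The fit on that table, run as an alternative, therefore nearly repeats the main scaling.

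Log2 signals, without outlier spots and with spots of a probe averaged, were scaled to each array's 75th percentile. A probe with several spots counted as above background where most of them were. Probes above background on at least 3 of 6 arrays entered limma's two-sided test without covariates (version 3.58.1, functions lmFit and eBayes, under R 4.3.3), adjusted by Benjamini-Hochberg over 47704 probes, at a threshold of 0.05. Names came from RefSeq accessions (GRCm38.p6, 28331 of 29786 probes matched). The tested probe with the highest mean stands for a gene. The members and lists were chosen with earlier results of these data known. The text names the members, up to 3 genes with the smallest p in each list, the 2 genes nearest in pattern to each member and, chosen after their values were seen, Sox10 and genes not tested. Some genes are not reported here. The fit was tested on simulated data with planted changes larger than those of any member. That test does not cover changes of the members' size. Alternatives covered normalization, background, filters, slide, row, replicate block, variance, weights and arrays left out.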

Additional observations from a re-analysis of the deposited data

How the results depend on the processing

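Over 141 recomputed values of the 8 members (by representing probe) under 18 alternatives, 0 passed (limma, lowest adjusted p 0.640), 132 kept their sign and 9 turned it. Part of the kept signs was fixed in advance. The other filters, the replicate block, slide row as a covariate and the trended and robust variance leave each log2 fold change as it was. The mean of the probes does so for members with a single probe. Slide as a block is the same fit as leaving out WT replicate 1, alone on its slide, and was counted once. S100b (0.73 to 1.23), Gfra3, Erbb3 and Foxd3 kept their sign in all alternatives run, although Gfra3 moved to -0.21 without both arrays numbered 3. Mbp turned to -0.47 with slide as a block and to -0.78 with the mean of its probes, and Ngfr turned to 0.29 without both arrays numbered 3. With 1 array left out, Mbp ran between -0.51 and 1.52, Nes between -1.60 and 0.64 and Sox2 between -0.65 and 2.00. The cause was not tested. Gfra3, Nes and Sox2 have no value under the filter on all 6 arrays, since they were not above background on each. Over all probes, 1 was called higher and 0 lower in Tg. The count of higher calls was 0 with the filter on all 6 arrays, with normexp and quantile normalization, with slide as a block, with slide row as a covariate, with trended and robust variance, without both arrays numbered 3 and without any 1 array (0 to 0). With the replicate number as a block the count was also 0 and no member passed. Deviations of same-numbered arrays correlated at 0.02, 0.05 and 0.13 across probes, and those of unlike-numbered arrays at -0.10 to 0.06. The highest value was that of the arrays numbered 3, which share slide row 2. The numbers were not taken as pairs. Dim signal limits Gfra3, Sox2 and Nes.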
